A study of Homo sapiens with 28 samples.

Results

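HOXB13 was depleted from LNCaP cells that received only the DMSO vehicle, and the comparison set the 3 libraries labelled shHOXB13 DMSO against the 3 labelled shCtrl DMSO. These 6 libraries of the 28 in the series were taken by their treatment label, and all 26443 genes with a value in their tables were used. LNCaP cells come from a lymph node metastasis of prostate cancer and respond to androgen. The shHOXB13 DMSO cells carried a lentiviral short hairpin against *HOXB13*, and the shCtrl DMSO cells carried the control vector. Both groups had the genotype label WT and had vehicle for 48 hours. The knockdown rests on 1 hairpin clone in 1 cell line, so an effect of that hairpin on other transcripts cannot be told apart from the loss of HOXB13. The study's methods give biological duplicates or triplicates for RNA-seq, and its legend for this experiment gives triplicates without saying of which kind. Where other libraries are named, they were 4 of an untreated knockdown series (2 shHOXB13 and 2 shCtrl) and 6 treated with 250 nM CCS1477, an inhibitor of the p300 and CBP bromodomains, for 48 hours (3 shHOXB13 and 3 shCtrl).

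HOXB13 is a homeodomain transcription factor of the posterior end of the HOXB cluster that marks the prostate epithelium. It binds DNA at many androgen-responsive enhancers, and it is also known to bring the HDAC3 and NCoR corepressor to enhancers of lipid synthesis genes. Lipid synthesis in these cells runs through the SREBP factors, which SCAP carries from the endoplasmic reticulum when sterol is low, while INSIG proteins hold them back. Androgens themselves leave prostate cells after UGT2B enzymes have joined them to glucuronic acid.

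Levels were given as FPKM, fragments per kilobase of gene scaled by the mapped reads of the library, so they compare genes per length. The shHOXB13 DMSO libraries held 10680261 to 11580018 mapped reads and the shCtrl DMSO libraries 8085754 to 9062146. Differences were tested on log2(FPKM + 0.1), which understates the change of genes near 0, with limma across 15907 genes and Benjamini-Hochberg adjustment. A gene was called at an adjusted p under 0.05, and where stated also at a difference of at least 2-fold. One library stood apart: shCtrl DMSO replicate 1 held 612 FPKM of *RPL7*, against 0.447 to 0.986 FPKM in the shHOXB13 DMSO libraries and 1.05 and 0.666 FPKM in the other shCtrl DMSO libraries. Its ribosomal protein genes took 5.87% of the reads in genes, against 2.71% to 2.84% in shHOXB13 DMSO and 3.66% to 3.79% in the other shCtrl DMSO libraries. Its log2 values correlated with those of its own group at 0.960 and 0.962, while the other shCtrl DMSO pair correlated at 0.977 and the shHOXB13 DMSO pairs at 0.979 to 0.980. Counts were therefore also made without it and without the CCS1477-treated shCtrl replicate 1, which stood apart in the same genes. Among markers of the line, *KLK3* and the luminal keratin *KRT18* were detected in all 6 libraries. Of 14 basal markers only 1, the factor *TP63*, was at 0 in all 6, and the most abundant, *LAMA3*, averaged 20.6 FPKM over them.

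*HOXB13* (chr17:48724763-48728750 on GRCh38, minus strand) was the targeted gene. It measured 28.4, 32.2 and 30.6 FPKM in shHOXB13 DMSO cells, against 139.8, 147 and 140.1 FPKM in shCtrl DMSO cells. The groups did not overlap, and 21.4% of the shCtrl DMSO mean was left in shHOXB13 DMSO cells (log2 −2.22, SE 0.08, limma adjusted p = 1.7e-09). The labels and the level of the target therefore gave the same grouping for all 6 libraries.

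In shHOXB13 DMSO cells fewer genes were higher than lower with FPKM as deposited, an order that turned round at the adjusted p alone with median-of-ratios scaling. At 2-fold or more, 662 genes were higher (4.16% of the genes tested) and 2731 lower (17.2%). At the adjusted p alone, 2412 genes were higher (15.2%) and 6747 lower (42.4%). The median gene was at log2 −0.33, and this shift depended on the scaling by all mapped reads: with median-of-ratios scaling, which sets the typical gene level between libraries, the median was −0.01, 1256 genes were at least 2-fold higher and 1639 lower, and the adjusted p alone called 4338 (27.3%) and 4135 (26%). The share of higher genes among 2-fold calls was thus 19.5% with FPKM as deposited and 43.4% with the other scaling. All 662 rises were kept under that scaling, as were 1639 of the 2731 falls. That scaling moved the median difference up from −0.33 to −0.01, a shift that by itself keeps rises and removes falls. Without replicate 1 of both shCtrl groups, DMSO and CCS1477, the counts were 640 and 2768, and 577 rises and 2460 falls were kept. In bulk RNA, fewer cells of a kind and less of an RNA per cell cannot be told apart, and neither can a fall in total RNA per cell from the shift in scaling.

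Genes at least 2-fold higher took 16.25%, 16.9% and 17.93% of the reads in genes in the shHOXB13 DMSO libraries, against 4.602%, 4.783% and 4.744% in the shCtrl DMSO libraries. Genes at least 2-fold lower took 4.998%, 4.909% and 4.792% in shHOXB13 DMSO, against 14.61%, 14.29% and 14.42% in shCtrl DMSO. *FASN* alone took 1.93% to 2.08% of reads in shHOXB13 DMSO libraries, against 0.370% to 0.408% in shCtrl DMSO libraries. The median gene called higher was at 5.90 FPKM in shHOXB13 DMSO and 1.45 FPKM in shCtrl DMSO cells, and the median gene called lower at 1.23 FPKM in shHOXB13 DMSO and 4.16 FPKM in shCtrl DMSO cells. A change of at least 4-fold was seen for 180 higher and 612 lower genes, and of at least 16-fold for 17 higher and 36 lower genes.

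**Figure D1:**
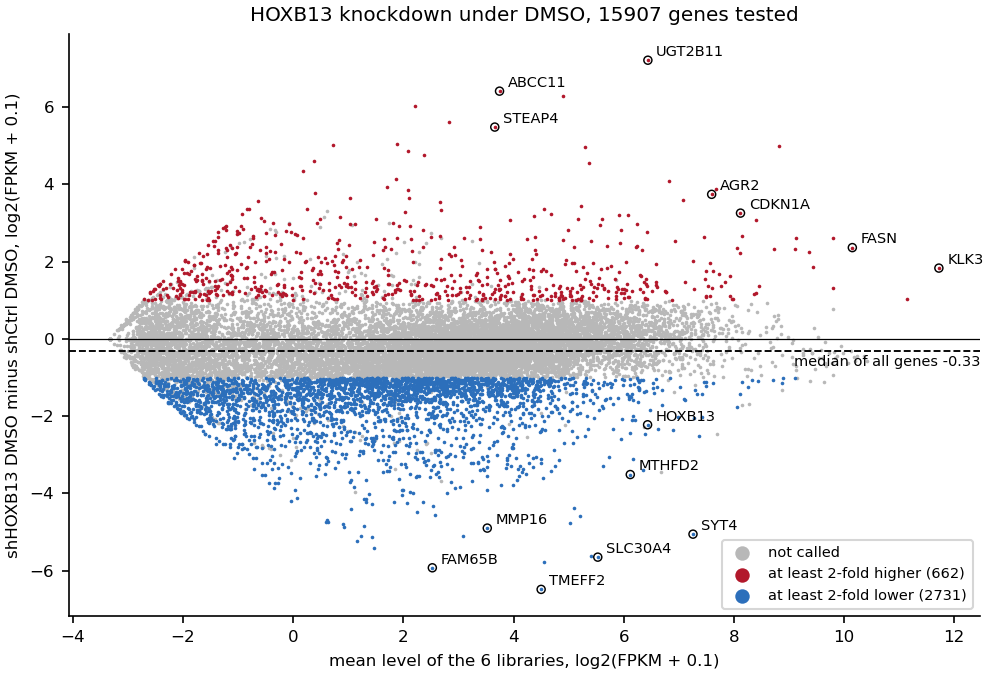
Difference between shHOXB13 DMSO and shCtrl DMSO cells on the log2(FPKM + 0.1) scale (vertical axis) against the mean level of the 6 libraries (horizontal axis) for 15907 genes, with 662 genes at least 2-fold higher in red and 2731 at least 2-fold lower in blue. The dashed line at −0.33 is the median gene, and with median-of-ratios scaling it lies at −0.01 and the counts become 1256 and 1639.

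Of the 12 largest rises, 5 were UDP-glucuronosyltransferases, the enzymes that attach glucuronic acid to steroids and bilirubin. *UGT2B11* measured 175, 166 and 176 FPKM in shHOXB13 DMSO cells, against 0.941, 1.29 and 0.98 FPKM in shCtrl DMSO cells. It was the largest rise among called genes with at least 1 FPKM in the higher group and separate libraries (log2 7.21, SE 0.12, limma adjusted p = 9.0e-12). *UGT2B28*, which acts on androgens, measured 62.3, 58.5 and 55.7 FPKM in shHOXB13 DMSO cells, against 0.675, 0.662 and 0.609 FPKM in shCtrl DMSO cells. Its libraries were far apart as well (log2 6.30, SE 0.11, limma adjusted p = 9.0e-12). *UGT2B15*, another androgen-conjugating enzyme, measured 75.1, 75.1 and 77.4 FPKM in shHOXB13 DMSO cells, against 2.41, 2.69 and 2.00 FPKM in shCtrl DMSO cells (log2 4.95, SE 0.18, limma adjusted p = 1.4e-09). *UGT2B10* stood at 13.6, 13.5 and 14.3 FPKM in shHOXB13 DMSO cells, against 0.24, 0.201 and 0.122 FPKM in shCtrl DMSO cells, a log2 difference of 5.62. *UGT2B17* showed 44.4, 46.4 and 47.4 FPKM in shHOXB13 DMSO cells, against 5.25, 5.19 and 4.11 FPKM in shCtrl DMSO cells, the highest control level of the 6 summed next (log2 3.23). Summed over *UGT2B7*, *UGT2B10*, *UGT2B11*, *UGT2B15*, *UGT2B17* and *UGT2B28*, the level was 371, 361 and 373 FPKM in shHOXB13 DMSO libraries, against 9.71, 10.0 and 7.88 FPKM in shCtrl DMSO libraries. Of 18 genes in the glucuronidation list 10 passed the filter and were tested. Of these, 8 were higher and 1 was lower, *UGDH*, which makes the glucuronic acid donor (log2 −0.81). The filter, 0.1 FPKM in 3 of 12 libraries, can be met by shHOXB13 libraries alone, which favours members that are high there. *UGT1A1*, the bilirubin enzyme, stood at 7.89, 5.80 and 7.36 FPKM in shHOXB13 DMSO cells, against 0.0525, 0.0936 and 0.237 FPKM in shCtrl DMSO cells. UGT2B genes are near-identical copies and UGT1A genes share exons, so reads could be split between members in counting and single values are uncertain.

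The UGT2B genes lie in a cluster on chromosome 4, and 3 of their promoters are shown because the genes rose together. The sequences are RefSeq promoters on GRCh38.p14, cut to the 250 bases before the start site and read 5′ to 3′ on the gene's strand, for *UGT2B11* (chr4:69214749-69214998, minus strand), *UGT2B10* (chr4:68815744-68815993, plus strand) and *UGT2B15* (chr4:68670653-68670902, minus strand). Capitals mark the CCAAT box, letters CCAAT, and the androgen response element letters AGAACA on either strand.
UGT2B11: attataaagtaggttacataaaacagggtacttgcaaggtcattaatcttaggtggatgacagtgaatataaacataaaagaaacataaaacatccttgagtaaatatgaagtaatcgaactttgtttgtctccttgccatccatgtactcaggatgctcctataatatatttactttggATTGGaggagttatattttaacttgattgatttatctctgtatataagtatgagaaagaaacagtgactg
UGT2B10: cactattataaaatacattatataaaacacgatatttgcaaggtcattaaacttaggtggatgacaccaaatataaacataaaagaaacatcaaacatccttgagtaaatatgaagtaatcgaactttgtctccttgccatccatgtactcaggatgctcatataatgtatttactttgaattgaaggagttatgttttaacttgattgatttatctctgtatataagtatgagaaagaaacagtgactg
UGT2B15: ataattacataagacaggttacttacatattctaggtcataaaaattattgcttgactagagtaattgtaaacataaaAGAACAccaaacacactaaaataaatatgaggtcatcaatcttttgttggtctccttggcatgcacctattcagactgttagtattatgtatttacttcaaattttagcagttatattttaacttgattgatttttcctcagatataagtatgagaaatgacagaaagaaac
*UGT2B11* and *UGT2B10* were 90.2% identical over these bases with 55 in 1 shared run, and *UGT2B15* was 72.6% and 71.6% identical to them. The androgen response letters were in the *UGT2B15* window and a CCAAT box in the *UGT2B11* window. Among all 35116 promoters in the table, 14.8% held AGAACA and 34.6% held CCAAT within 250 bases before to 50 bases after the start, and of the promoters of genes tested 10.3% and 34.5% held them. In the glucuronidation list, whether or not the gene was tested, 4 of 15 promoters (26.7%) and 8 of 15 (53.3%) held them. These are matches of letters and not measured sites.

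Other large rises came from transporters, a metalloreductase and noncoding or secreted products. *ABCC11*, an ATP-driven efflux pump, measured 24.8, 26.8 and 27.6 FPKM in shHOXB13 DMSO cells, against 0.353, 0.247 and 0.0909 FPKM in shCtrl DMSO cells (log2 6.41, SE 0.32, limma adjusted p = 1.8e-08). *ABCC12*, the neighbouring pump of the same family, stood at 2.94, 3.35 and 3.06 FPKM in shHOXB13 DMSO cells and was at 0 in all 3 shCtrl DMSO libraries. Against a floor of 3 reads over the control group, it was at least 140-fold higher. *STEAP4*, a metalloreductase that responds to androgen in prostate cells, measured 24.4, 23.5 and 25.9 FPKM in shHOXB13 DMSO cells, against 0.352, 0.7 and 0.366 FPKM in shCtrl DMSO cells (log2 5.48, SE 0.23, limma adjusted p = 5.0e-09). *DSCAM-AS1*, a long noncoding RNA known from breast cancer, measured 9.59, 9.10 and 8.35 FPKM in shHOXB13 DMSO cells, against 0.0699, 0.0624 and 0 FPKM in shCtrl DMSO cells. It had 528 reads over the shHOXB13 DMSO libraries, against 2 over the shCtrl DMSO libraries, a 208-fold ratio with a 95% counting interval from 57.2 to 1.72e+03. *MUCL1*, a small secreted mucin, was uneven between libraries, at 10.1, 14.7 and 4.94 FPKM in shHOXB13 DMSO cells, against 0.253, 0.226 and 0.228 FPKM in shCtrl DMSO cells (41.7-fold, interval 14 to 204, from 159 and 3 reads). *DOC2GP*, a pseudogene, stood at 8.66, 7.34 and 8.16 FPKM in shHOXB13 DMSO cells, against 0, 0.509 and 0.257 FPKM in shCtrl DMSO cells (30.4-fold, interval 10.2 to 150, from 116 and 3 reads). Counting intervals cover counting error only, and the counting did not use strand, so *DSCAM-AS1* reads cannot be told apart from reads of the gene opposite.

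**Figure D2:**
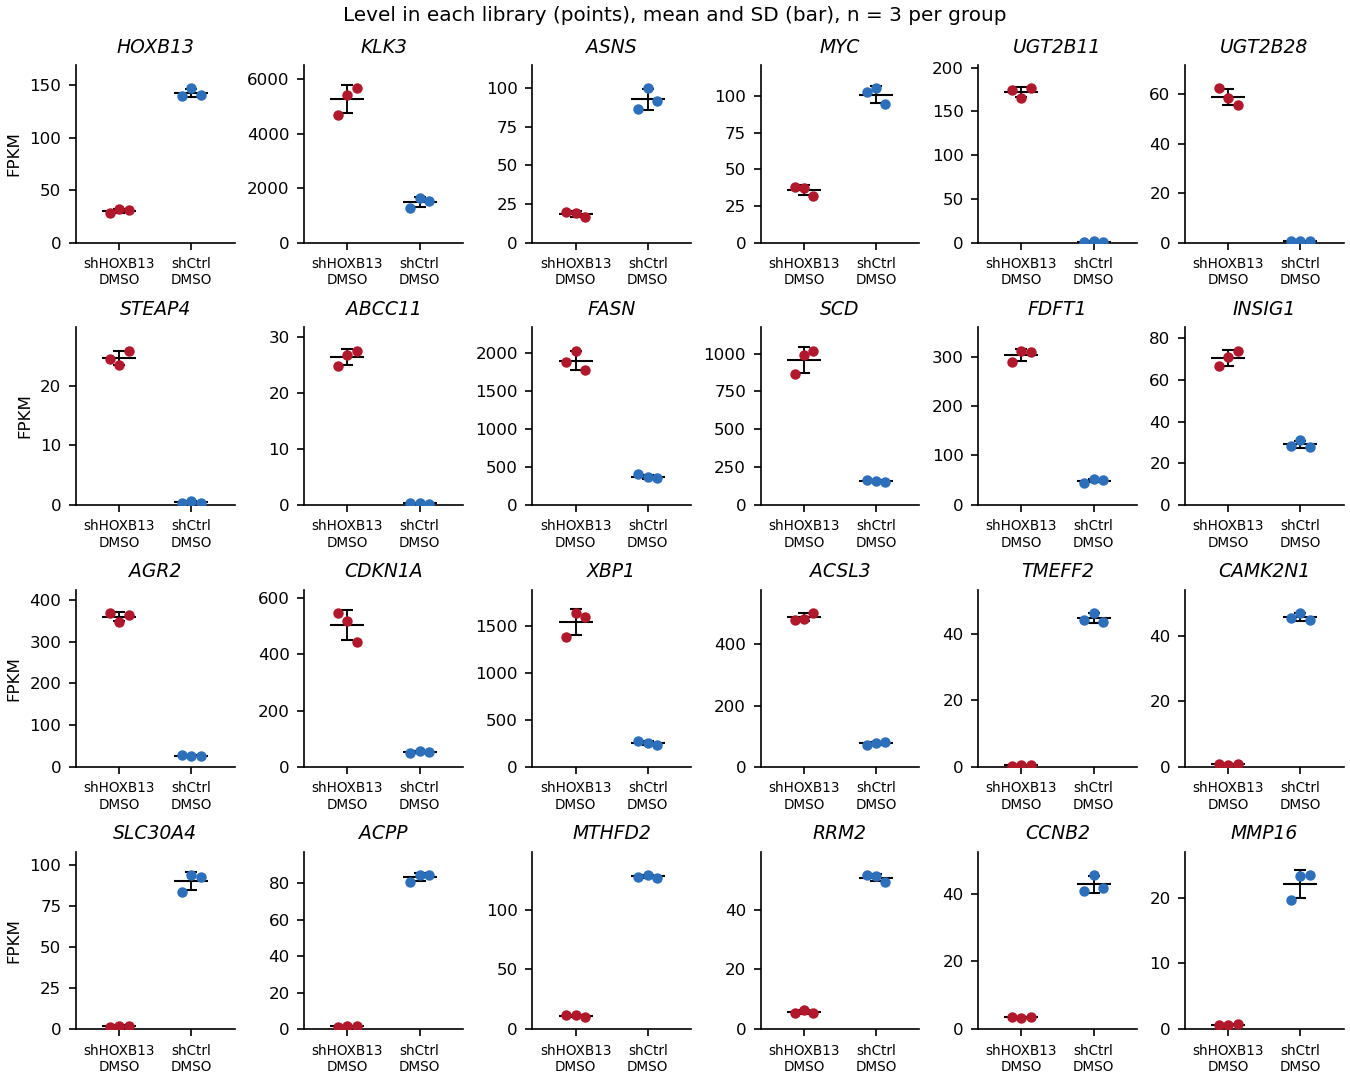
FPKM of 24 genes in each of the 3 shHOXB13 DMSO (left, red) and 3 shCtrl DMSO (right, blue) libraries, with the mean and SD. In every panel the groups are separate, from *HOXB13* at 28.4 to 32.2 against 139.8 to 147 FPKM through *UGT2B11* at 166 to 176 against 0.941 to 1.29 FPKM to *MMP16* at 0.593 to 0.722 against 19.7 to 23.5 FPKM.

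The 12 largest falls held membrane, secreted, signalling and keratin genes and a pseudogene. *TMEFF2*, a transmembrane protein with follistatin and EGF-like domains that is enriched in prostate, measured 0.222, 0.421 and 0.642 FPKM in shHOXB13 DMSO cells, against 44.1, 46.4 and 43.5 FPKM in shCtrl DMSO cells. The means were 104-fold apart (log2 −6.49, SE 0.25, limma adjusted p = 2.8e-09). *SLC30A4*, a zinc transporter, measured 1.28, 2.08 and 1.83 FPKM in shHOXB13 DMSO cells, against 83.8, 94.3 and 93.1 FPKM in shCtrl DMSO cells (log2 −5.65, SE 0.16, limma adjusted p = 3.1e-10). *ACPP*, prostatic acid phosphatase, stood at 1.34, 1.74 and 1.74 FPKM in shHOXB13 DMSO cells, against 80.9, 84.8 and 84.4 FPKM in shCtrl DMSO cells (log2 −5.62, SE 0.18, limma adjusted p = 7.7e-10). All 6 values of each gene fell into separate groups. *SYT4*, a synaptotagmin of secretory vesicles, had the highest shCtrl DMSO level of the 12, at 7.39, 9.81 and 9.51 FPKM in shHOXB13 DMSO cells, against 292, 298 and 300.2 FPKM in shCtrl DMSO cells, and its means were 33.4-fold apart (log2 −5.06). *CAMK2N1*, an inhibitor of the calcium/calmodulin kinase CaMKII, measured 0.858, 0.558 and 0.808 FPKM in shHOXB13 DMSO cells, against 45.5, 47.1 and 44.8 FPKM in shCtrl DMSO cells (log2 −5.79). *FAM65B* stood at 0.0798, 0.0816 and 0.0967 FPKM in shHOXB13 DMSO cells, against 10.6, 12.3 and 10.8 FPKM in shCtrl DMSO cells (log2 −5.93). The prostate-enriched olfactory receptors fell together: *OR51E1* by 5.14 and *OR51E2* by 4.85 on the log2 scale. *BMX*, a TEC family kinase, was at 0.137, 0 and 0 FPKM in shHOXB13 DMSO cells and at 4.56, 4.69 and 4.15 FPKM in shCtrl DMSO cells. *KRT14*, a basal keratin, and the pseudogene *HMGN2P46* were down to 2 and 1 reads over the shHOXB13 DMSO group, against 149 and 214 reads over the shCtrl DMSO group (94.6-fold lower, interval 25.7 to 789, and 272-fold lower, interval 48.3 to 1.08e+04).

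The most abundant genes called are given for each group. *KLK3*, *FASN*, *XBP1*, *P4HB*, *ABHD2*, *SCD* and *GDF15* were among the 8 called genes with the highest levels in shHOXB13 DMSO cells. *GDF15*, a stress cytokine, measured 2848, 3137 and 3082 FPKM in shHOXB13 DMSO cells, against 1789, 1412 and 1304 FPKM in shCtrl DMSO cells (log2 1.02). *P4HB*, protein disulfide isomerase, averaged 1266 ± 88.7 FPKM in shHOXB13 DMSO and 506 ± 36.1 FPKM in shCtrl DMSO cells, and *ABHD2*, a monoacylglycerol lipase, averaged 1089.9 ± 81.6 FPKM in shHOXB13 DMSO and 230.3 ± 21.4 FPKM in shCtrl DMSO cells (SD, n = 3). *PABPC1*, the poly(A)-binding protein, fell to 290.3 ± 14.3 FPKM in shHOXB13 DMSO cells, against 642 ± 62.4 FPKM in shCtrl DMSO cells. The ribosomal protein genes *RPL4*, *RPL5* and *RPL12* and the ferritin chain *FTH1* were also lower, by 1.01, 1.10, 1.07 and 1.02 on the log2 scale. For these 4 genes shCtrl DMSO replicate 1 was the highest library, and without replicate 1 of both shCtrl groups the differences were −0.66, −0.92, −0.80 and −0.59. *FTH1* was not past the test without shHOXB13 DMSO replicate 1, 2 or 3 (adjusted p = 0.0695, 0.0727 and 0.103) or without shCtrl DMSO replicate 1 (adjusted p = 0.16). With median-of-ratios scaling *RPL4* and *FTH1* no longer passed the test (limma adjusted p = 0.081 and 0.18).

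Cholesterol synthesis genes rose along most of the pathway. From acetyl-CoA to squalene, 6 of 9 members were higher and 0 lower (median log2 0.68), and from squalene to cholesterol, 9 of 12 members were higher and 1 lower (median 0.48). Against the median of −0.33 over all genes both lists lay high. *FDFT1*, squalene synthase, measured 289.9, 313 and 309 FPKM in shHOXB13 DMSO cells, against 44.9, 52.2 and 50.2 FPKM in shCtrl DMSO cells (log2 2.63, SE 0.11, limma adjusted p = 3.6e-09). It was the largest rise of the pathway. *HMGCS1*, the cytosolic HMG-CoA synthase, measured 55.3, 48.8 and 46.0 FPKM in shHOXB13 DMSO cells, against 11.0, 11.8 and 13.1 FPKM in shCtrl DMSO cells (log2 2.05, SE 0.11, limma adjusted p = 3.1e-08). *IDI1*, isopentenyl diphosphate isomerase, was at 75.9, 71.1 and 64.4 FPKM in shHOXB13 DMSO and 24.7, 22.9 and 23.1 FPKM in shCtrl DMSO libraries (log2 1.57). *DHCR7*, a reductase of the last steps, averaged 150.3 ± 5.58 FPKM in shHOXB13 DMSO and 64.2 ± 0.745 FPKM in shCtrl DMSO cells (log2 1.23). The kinases and decarboxylase changed less: *MVK* by 0.68 and *MVD* by 0.71, with *FDPS*, farnesyl diphosphate synthase, at 0.47. *TM7SF2* and *LBR* both reduce the sterol ring, and they moved apart. *TM7SF2* measured 473, 513 and 542 FPKM in shHOXB13 DMSO cells, against 192, 208 and 188 FPKM in shCtrl DMSO cells (log2 1.38). *LBR*, which is also a receptor of the inner nuclear membrane, measured 14.2, 14.1 and 14.7 FPKM in shHOXB13 DMSO cells, against 33.6, 37.8 and 39.7 FPKM in shCtrl DMSO cells (log2 −1.36). It was the 1 member of the pathway called lower with all libraries in the fit. With median-of-ratios scaling the counts were 7 higher and 0 lower in the first list and 10 higher and 1 lower in the second. Without replicate 1 of both shCtrl groups 7 were higher and 1 lower in the first list.

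**Figure D3:**
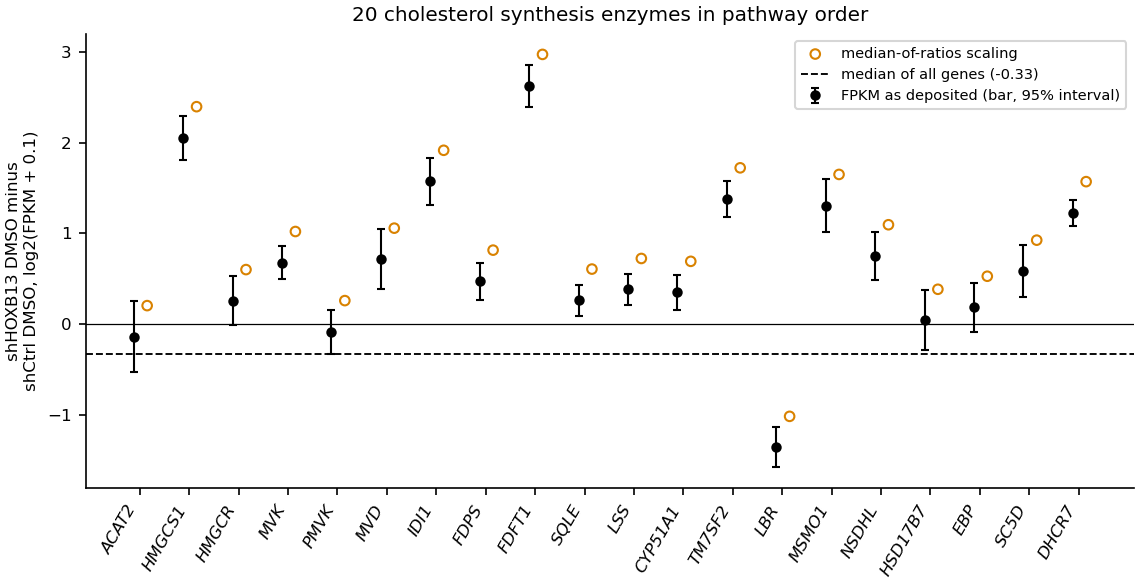
Difference between shHOXB13 DMSO and shCtrl DMSO cells on the log2(FPKM + 0.1) scale for 20 cholesterol synthesis enzymes in pathway order, with 95% intervals (black) and the value under median-of-ratios scaling (open orange circles). *FDFT1* (2.63) and *HMGCS1* (2.05) lie highest, *LBR* (−1.36) lies below the median of all genes (−0.33, dashed), and *ACAT2* and *PMVK* lie below 0 with FPKM as deposited and above it with the other scaling.

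The SREBP factors and their regulators rose in part. *SREBF1*, the factor of fatty acid genes, measured 345, 392 and 375 FPKM in shHOXB13 DMSO cells, against 133, 117 and 108 FPKM in shCtrl DMSO cells (log2 1.64, SE 0.09, limma adjusted p = 3.6e-08). *SREBF2*, the factor of sterol genes, measured 75.3, 80.5 and 82.1 FPKM in shHOXB13 DMSO cells, against 51.5, 55.8 and 53.6 FPKM in shCtrl DMSO cells (log2 0.56, SE 0.06, limma adjusted p = 1.6e-05). Both sets of libraries were separate, and the difference was larger for *SREBF1*. *SCAP*, the escort of both factors, rose by 0.78 on the log2 scale, while *MBTPS1*, the protease that cuts them in the Golgi, was at −0.24 (limma adjusted p = 0.034) and turned to 0.11 with median-of-ratios scaling, and its call was lost without replicate 1 or 3 of either DMSO group (adjusted p = 0.0514 to 0.123). Among their targets, *INSIG1*, which holds SCAP back, measured 66.6, 71.1 and 74.2 FPKM in shHOXB13 DMSO cells, against 28.3, 31.0 and 27.9 FPKM in shCtrl DMSO cells (log2 1.28). The cholesterol exporter *ABCG1* rose as well (log2 1.36), and *NR1H3*, the LXR alpha receptor that induces it, fell (log2 −1.06). In the list as a whole 6 of 15 members were higher and 2 lower, and 10 higher and 1 lower with median-of-ratios scaling. Without replicate 1 or 3 of either DMSO group 1 was lower.

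Promoters of 4 genes that rose in this group are shown for the sterol response element that SREBPs bind and for the CCAAT box, which binds NF-Y, a known partner of SREBPs. Letters searched on both strands were TCACCCCAC and TCACCCCAT for the sterol response element, CACGTG for the E-box and CCAAT for the CCAAT box, and matches are in capitals. The bases are the 250 before the start site on GRCh38.p14 from RefSeq: *SREBF2* (chr22:41832855-41833104, plus strand), *HMGCS1* (chr5:43313413-43313662, minus strand), *INSIG1* (chr7:155297628-155297877, plus strand) and *SCD* (chr10:100346983-100347232, plus strand).
SREBF2: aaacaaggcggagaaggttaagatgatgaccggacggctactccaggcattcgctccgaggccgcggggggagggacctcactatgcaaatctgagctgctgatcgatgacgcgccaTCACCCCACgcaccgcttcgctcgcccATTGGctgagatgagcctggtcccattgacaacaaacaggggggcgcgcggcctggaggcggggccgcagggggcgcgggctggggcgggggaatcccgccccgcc
HMGCS1: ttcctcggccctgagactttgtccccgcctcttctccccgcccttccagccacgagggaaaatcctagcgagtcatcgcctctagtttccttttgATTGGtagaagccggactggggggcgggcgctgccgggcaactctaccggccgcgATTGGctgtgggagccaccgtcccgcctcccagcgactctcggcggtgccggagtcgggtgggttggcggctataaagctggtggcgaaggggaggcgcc
INSIG1: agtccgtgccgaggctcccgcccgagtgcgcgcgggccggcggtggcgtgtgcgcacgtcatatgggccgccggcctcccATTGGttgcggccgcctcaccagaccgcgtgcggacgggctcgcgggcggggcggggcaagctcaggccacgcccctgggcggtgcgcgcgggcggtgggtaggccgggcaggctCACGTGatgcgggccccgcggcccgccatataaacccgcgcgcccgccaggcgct
SCD: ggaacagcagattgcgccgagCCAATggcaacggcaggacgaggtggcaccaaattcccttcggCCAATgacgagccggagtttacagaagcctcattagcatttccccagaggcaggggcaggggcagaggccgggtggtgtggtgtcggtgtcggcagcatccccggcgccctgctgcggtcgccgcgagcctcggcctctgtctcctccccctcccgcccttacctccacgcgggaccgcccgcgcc
*SREBF2* held a sterol response element 133 to 125 bases before its start and 1 CCAAT box, *HMGCS1* and *SCD* held 2 CCAAT boxes each, and *INSIG1* held 1 E-box and 1 CCAAT box. The sterol response letters were in 10 of 662 promoters (1.51%) of the genes at least 2-fold higher, against 0.556% of the promoters of all genes tested and 0.652% of all promoters. The E-box letters were in 5.44% of the promoters of the genes at least 2-fold higher, against 9.14% for all genes tested and 7.26% of all promoters. The sterol response letters were in 0 of the 9 early mevalonate promoters and 0 of the 12 of the sterol branch, and the E-box letters in 0 and 3 (25%). A CCAAT box was in 6 (66.7%) and 9 (75%) of them, against 34.5% of the promoters of all genes tested. No test was made of these shares.

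Fatty acid synthesis rose at its main enzymes. *FASN*, fatty acid synthase, measured 1889, 2035 and 1783 FPKM in shHOXB13 DMSO cells, against 399.8, 361 and 349 FPKM in shCtrl DMSO cells (log2 2.36, SE 0.13, limma adjusted p = 3.5e-08). *ACACA*, the carboxylase that makes malonyl-CoA, measured 60.2, 65.0 and 63.0 FPKM in shHOXB13 DMSO cells, against 21.3, 27.2 and 25.7 FPKM in shCtrl DMSO cells (log2 1.34). *ACLY*, which supplies cytosolic acetyl-CoA, measured 179, 181 and 161 FPKM in shHOXB13 DMSO cells, against 94.3, 101 and 96.1 FPKM in shCtrl DMSO cells (log2 0.84). The libraries of these 3 enzymes did not overlap between groups. *THRSP*, a lipogenic regulator, averaged 11.6 ± 2.13 FPKM in shHOXB13 DMSO and 0.951 ± 0.42 FPKM in shCtrl DMSO cells (log2 3.55), while *ACACB*, the mitochondrial carboxylase, fell (log2 −1.28). *MID1IP1*, the partner of *THRSP*, was lower at −0.34 with FPKM as deposited and unmoved at 4e-04 with median-of-ratios scaling. *OLAH*, a thioesterase that releases medium-chain fatty acids, rose on few reads (50 over shHOXB13 DMSO, against 1 over shCtrl DMSO, 39.4-fold, interval 6.75 to 1.59e+03). In all, 6 of 12 members were higher and 3 lower in the de novo lipogenesis list (median log2 0.53, or 0.85 with median-of-ratios scaling, which counted 8 higher and 1 lower).

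Desaturation and activation followed more mixed patterns. *SCD*, the desaturase that makes oleate, measured 863, 991 and 1021 FPKM in shHOXB13 DMSO cells, against 165, 159 and 149 FPKM in shCtrl DMSO cells (log2 2.6, SE 0.09, limma adjusted p = 1.1e-09). *FADS2*, the first desaturase of polyunsaturated fatty acids, rose by 0.85, and the elongase *ELOVL1* by 0.64, while *ELOVL7* fell by 1.75 and the dehydratase *HACD2* by 1.20 on the log2 scale. Of the elongases and desaturases 7 of 16 members were higher and 5 lower (median log2 0.28, or 0.60 with median-of-ratios scaling, which counted 8 higher and 3 lower). The acyl-CoA synthetases split: *ACSL3*, which sits on lipid droplets, measured 480.4, 483 and 504 FPKM in shHOXB13 DMSO cells, against 70.9, 78.6 and 81.2 FPKM in shCtrl DMSO cells (log2 2.67, SE 0.10, limma adjusted p = 1.7e-09), and *ACSL1* measured 430.0, 476 and 468 FPKM in shHOXB13 DMSO cells, against 95.1, 101 and 96.4 FPKM in shCtrl DMSO cells (log2 2.23). *ACSL6* averaged 1.74 ± 0.226 FPKM in shHOXB13 DMSO and 0.373 ± 0.105 FPKM in shCtrl DMSO cells and rose as well. In the other direction the mitochondrial acetate enzyme *ACSS1* fell (log2 −2.24), as did *SLC27A2*, a peroxisomal very long chain synthetase (log2 −1.21). The list counted 5 of 13 higher and 6 lower (median log2 −0.07, or 0.27 with median-of-ratios scaling, which counted 7 higher and 4 lower), so its median changed sign with the scaling. In the 45-gene fatty-acyl-CoA table that the study printed, 16 of 41 members were higher and 9 lower (median log2 0.27, or 0.54 with median-of-ratios scaling, which counted 25 higher and 6 lower). It is no independent evidence, since the study drew it from genes near sites bound by HOXB13, HDAC3 and p300 in LNCaP cells. RNA levels were not part of that choice.

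Storage and breakdown genes also moved. *LPIN1*, a phosphatidate phosphatase on the way to triglyceride, measured 37.4, 37.0 and 34.0 FPKM in shHOXB13 DMSO cells, against 9.30, 11.3 and 10.3 FPKM in shCtrl DMSO cells (log2 1.80). *MGLL*, monoacylglycerol lipase, averaged 15.3 ± 1.13 FPKM in shHOXB13 DMSO and 4.68 ± 0.63 FPKM in shCtrl DMSO cells (log2 1.70), and *DGAT1*, the last acyltransferase of triglyceride synthesis, rose by 0.61. *GPAM*, the mitochondrial glycerol-phosphate acyltransferase, fell (log2 −0.86). Of the triglyceride and lipid droplet genes 7 of 21 members were higher and 7 lower (median log2 −0.09, or 0.06 with median-of-ratios scaling, which counted 8 higher and 2 lower), and 4 were lower without shHOXB13 DMSO replicate 1 or shCtrl DMSO replicate 3. Fatty acid oxidation genes were mostly higher: 15 of 23 members were higher and 3 lower (median log2 0.44, or 0.79 with median-of-ratios scaling, which counted 17 higher and 2 lower). *SLC25A20*, the mitochondrial carnitine carrier, measured 20, 24.8 and 22.7 FPKM in shHOXB13 DMSO cells, against 7.19, 7.87 and 6.72 FPKM in shCtrl DMSO cells (log2 1.62, SE 0.12, limma adjusted p = 3.3e-07). *ETFA*, an electron carrier of beta-oxidation, averaged 339.8 ± 23.1 FPKM in shHOXB13 DMSO and 167 ± 9.98 FPKM in shCtrl DMSO cells (log2 1.02), and *CPT2* rose by 0.58. Peroxisomal *EHHADH* and the thiolase *ACAA2* fell instead (log2 −1.64 and −1.80). *ACADL*, a long-chain dehydrogenase, was the largest rise of that list at low level, 1.69, 1.02 and 0.936 FPKM in shHOXB13 DMSO cells, against 0.199, 0.133 and 0.179 FPKM in shCtrl DMSO cells.

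**Figure D4:**
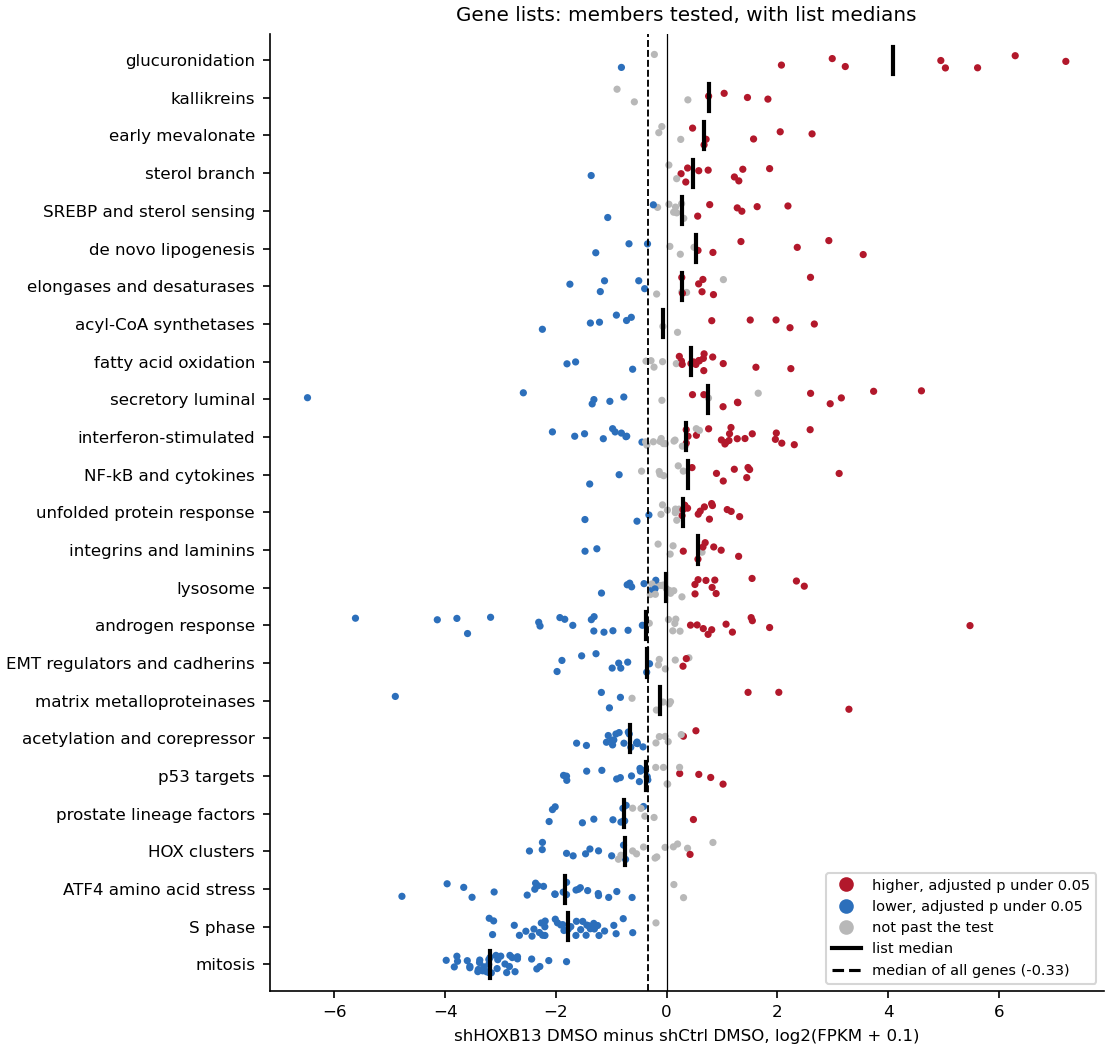
Difference between shHOXB13 DMSO and shCtrl DMSO cells on the log2(FPKM + 0.1) scale for the tested members of 25 gene lists, with the list median as a black bar and the median of all genes (−0.33) dashed. The glucuronidation median lies at 4.09 and the mitosis median at −3.19, while the medians of the acyl-CoA synthetases and matrix metalloproteinase lists, at −0.07 and −0.12, and of the lysosome list, on the zero line, turn positive with median-of-ratios scaling.

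The kallikrein and androgen-responsive genes did not move as 1 group. *KLK3*, which encodes PSA (chr19:50854915-50860764 on GRCh38, plus strand), measured 4692, 5444 and 5672 FPKM in shHOXB13 DMSO cells, against 1279, 1626 and 1545 FPKM in shCtrl DMSO cells (log2 1.83, SE 0.14, limma adjusted p = 6.1e-07). The means were 3.55-fold apart, with no overlap. *KLK2* measured 192, 205 and 209 FPKM in shHOXB13 DMSO cells, against 64.9, 78.3 and 77.2 FPKM in shCtrl DMSO cells (log2 1.46), and *KLK4* averaged 151 ± 12.9 FPKM in shHOXB13 DMSO and 88.7 ± 3.71 FPKM in shCtrl DMSO cells (log2 0.76). *KLK2* and *KLK3* are neighbouring, similar copies, so reads could be split between them. Of 7 tested kallikreins 4 were higher and none lower (median log2 0.76, or 0.65 with *KLK6* at its bound); 1 was lower without shHOXB13 DMSO replicate 3. The fourth of the higher members, *KLK6*, had 6 reads over shHOXB13 DMSO and 0 over shCtrl DMSO (at least 1.57-fold higher). Outside the kallikreins, 11 of 34 members were higher and 17 lower in the androgen response list (median log2 −0.37, or −0.03 with median-of-ratios scaling, which counted 16 higher and 15 lower). The median of −0.37 lay near the −0.33 over all genes tested, of which 15.2% were higher and 42.4% lower. *STEAP4* above and *ACPP* were the extremes of the list. *SLC45A3*, prostein, measured 38.1, 38.2 and 39.5 FPKM in shHOXB13 DMSO cells, against 146, 137 and 132 FPKM in shCtrl DMSO cells (log2 −1.84). *PMEPA1* and *CAMKK2* fell by 2.28 and 1.93. *UBE2C*, a mitotic ubiquitin enzyme also counted in the list, fell by 3.79 on the log2 scale.

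The *KLK3* promoter is shown because its proximal androgen response element is a classic androgen-responsive site (chr19:50854665-50854914, plus strand, 250 bases before the start, GRCh38.p14, RefSeq), with AGAACA in capitals at 170 to 165 bases before the start.
KLK3: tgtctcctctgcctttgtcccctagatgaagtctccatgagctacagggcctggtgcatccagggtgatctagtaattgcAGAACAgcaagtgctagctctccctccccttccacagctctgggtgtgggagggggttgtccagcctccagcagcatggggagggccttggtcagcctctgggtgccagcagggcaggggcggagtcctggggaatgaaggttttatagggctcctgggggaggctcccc
The same letters were in 9.52% of the promoters of genes at least 2-fold higher and in 11.2% of those at least 2-fold lower, against 10.3% for all genes tested. CCAATAAA, the letters preferred by HOXB13, which contain CCAAT and were searched on both strands like AGAACA, were in 0.302% and 0.639% of the same 2 sets, against 0.663% for all genes tested and 0.934% of all promoters. Distal enhancers were not searched.

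Other steroid enzymes moved in both directions. Beside the UGT2B genes above, *HSD17B2*, which oxidises active androgens and estrogens, was at 1.02, 2.74 and 1.32 FPKM in shHOXB13 DMSO and 0.0862, 0.231 and 0.156 FPKM in shCtrl DMSO libraries (log2 2.72). *SRD5A1*, a 5-alpha reductase, and *STS*, steroid sulfatase, rose by 0.47 and 0.68. *HSD17B4* and *HSD17B11* fell (log2 −0.68 and −1.08), and *CYP11A1* had 3 reads over shHOXB13 DMSO, against 25 over shCtrl DMSO (10.6-fold lower, interval 3.23 to 54.8). Over the list of androgen synthesis and breakdown, 4 of 15 members were higher and 3 lower (median log2 −0.02, or 0.08 with median-of-ratios scaling, which counted 6 higher and 3 lower).

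Secretory and luminal genes moved in both directions. *AGR2*, a disulfide isomerase of mucin-secreting cells, measured 369.6, 347 and 363 FPKM in shHOXB13 DMSO cells, against 28.4, 26.9 and 25.2 FPKM in shCtrl DMSO cells (log2 3.74, SE 0.10, limma adjusted p = 3.1e-10). *XBP1*, a factor of secretory cells, measured 1381, 1639 and 1588 FPKM in shHOXB13 DMSO cells, against 275, 249 and 234 FPKM in shCtrl DMSO cells (log2 2.6). *AZGP1*, a secreted lipid-mobilising glycoprotein, averaged 83.7 ± 6.57 FPKM in shHOXB13 DMSO and 10.7 ± 1.36 FPKM in shCtrl DMSO cells (log2 2.96). *SPINK1*, a secreted protease inhibitor, had 48 reads in shHOXB13 DMSO libraries and 0 in shCtrl DMSO libraries (at least 12.6-fold higher). *SPDEF*, an ETS factor of secretory epithelium, rose by 0.67. *TMEFF2*, *TFF3* and others made up the lower side (*TFF3* log2 −1.34). Of the list 10 of 19 members were higher and 6 lower (median log2 0.76, or 1.19 with median-of-ratios scaling, which counted 11 higher and 5 lower). Of the unfolded protein response genes 14 of 25 members were higher and 3 lower (median log2 0.30, or 0.64 with median-of-ratios scaling, which counted 20 higher and 1 lower). *HSPA5*, the chaperone BiP, measured 435, 476 and 456 FPKM in shHOXB13 DMSO cells, against 232, 196 and 183 FPKM in shCtrl DMSO cells (log2 1.17), and *WFS1* and *DERL2* rose by 1.32 and 1.10. *ERN1*, the sensor IRE1, fell by 1.47 and *EDEM1* by 0.53, and *EDEM1* did not pass the test with median-of-ratios scaling.

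The amino acid stress genes went the other way. ATF4 is the factor that induces amino acid synthesis genes when amino acids are short, and of its list 0 of 26 members were higher and 24 lower (median log2 −1.84, −1.50 with median-of-ratios scaling, which counted 2 higher and 23 lower). *MTHFD2*, the mitochondrial folate enzyme, measured 11.8, 11.5 and 10.1 FPKM in shHOXB13 DMSO cells, against 128, 129 and 126 FPKM in shCtrl DMSO cells (log2 −3.51, SE 0.10, limma adjusted p = 4.1e-10). *ASNS*, asparagine synthetase, measured 19.8, 19.1 and 16.5 FPKM in shHOXB13 DMSO cells, against 86.6, 99.9 and 91.6 FPKM in shCtrl DMSO cells (log2 −2.32). The serine pathway fell along its length, with *PHGDH* at −2.02, *PSAT1* at −2.37 and *PSPH* at −2.22. *TRIB3*, a pseudokinase of this response, averaged 14.8 ± 1.31 FPKM in shHOXB13 DMSO and 129 ± 11.7 FPKM in shCtrl DMSO cells (log2 −3.11), and *CHAC1*, which degrades glutathione, averaged 2.34 ± 0.101 FPKM in shHOXB13 DMSO and 30.8 ± 1.41 FPKM in shCtrl DMSO cells (log2 −3.66). Of the p53 target list 4 of 23 members were higher and 14 lower (median log2 −0.38, or −0.03 with median-of-ratios scaling, which counted 7 higher and 8 lower). The list median with FPKM as deposited lay near the −0.33 over all genes tested, of which 15.2% were higher and 42.4% lower. *SESN2*, *DDB2* and *GADD45A* fell by 1.81, 1.86 and 1.80, and *TP53I3* rose by 0.80.

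Cell cycle genes fell almost without exception. Of the mitosis list all 37 members were lower, by 1.81 to 3.98 on the log2 scale (median −3.19, −2.85 with median-of-ratios scaling). Each had separate libraries, as did 2677 of the 2731 genes at least 2-fold lower. Of 39 S phase genes 38 were lower and none higher (median −1.77, −1.44 with the other scaling). The exception, *CCNE1*, was singled out after its value was seen, and was at −0.19, or 0.15 with median-of-ratios scaling. *CCNB2*, a mitotic cyclin, measured 3.49, 3.26 and 3.57 FPKM in shHOXB13 DMSO cells, against 41.0, 45.7 and 41.8 FPKM in shCtrl DMSO cells (log2 −3.60, SE 0.09, limma adjusted p = 1.1e-10). *TOP2A*, topoisomerase II alpha, measured 2.12, 2.26 and 1.85 FPKM in shHOXB13 DMSO cells, against 27.2, 30.9 and 30.8 FPKM in shCtrl DMSO cells (log2 −3.78, SE 0.15, limma adjusted p = 3.1e-09). *RRM2*, which makes deoxyribonucleotides, measured 5.31, 6.49 and 5.26 FPKM in shHOXB13 DMSO cells, against 51.7, 51.2 and 49.4 FPKM in shCtrl DMSO cells (log2 −3.14, SE 0.11, limma adjusted p = 1.2e-09). Of the helicase genes *MCM2* was at −2.26, *MCM7* at −1.91 and *CDC45* at −3.20, and *E2F1*, the S phase factor, was at −2.30. Against them *CDKN1A*, which encodes the cyclin kinase inhibitor p21, measured 548, 519.6 and 443 FPKM in shHOXB13 DMSO cells, against 48.6, 55.7 and 53.3 FPKM in shCtrl DMSO cells (log2 3.25, SE 0.10, limma adjusted p = 5.8e-10). *CDK4* fell by 1.57 and the inhibitors *CDKN2A* and *CDKN2C* by 1.32 and 1.39. Among CDK inhibitors and D cyclins 4 of 13 members were higher and 7 lower (median log2 −0.42, or −0.08 with median-of-ratios scaling, which counted 5 higher and 5 lower). *MYC* measured 38.2, 37.6 and 31.7 FPKM in shHOXB13 DMSO cells, against 103, 105 and 94.8 FPKM in shCtrl DMSO cells (log2 −1.50, −1.15 with median-of-ratios scaling). In the MYC network list 1 of 10 members were higher and 6 lower (median −0.39), or 2 higher and 2 lower with that scaling. The medians of the CDK inhibitor and MYC network lists lay near the −0.33 over all genes tested, of which 15.2% were higher and 42.4% lower.

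Promoters of 3 mitotic genes are shown because they fell together and carry CCAAT boxes, in capitals on either strand: *CCNB1* (chr5:69166900-69167149, plus strand), *CCNB2* (chr15:59104896-59105145, plus strand) and *TOP2A* (chr17:40417897-40418146, minus strand), 250 bases before the start, GRCh38.p14, RefSeq.
CCNB1: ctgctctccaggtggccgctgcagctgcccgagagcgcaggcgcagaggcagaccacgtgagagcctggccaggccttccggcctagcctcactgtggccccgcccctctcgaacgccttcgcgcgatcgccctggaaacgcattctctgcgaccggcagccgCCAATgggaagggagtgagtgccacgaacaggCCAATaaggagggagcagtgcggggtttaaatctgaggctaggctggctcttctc
CCNB2: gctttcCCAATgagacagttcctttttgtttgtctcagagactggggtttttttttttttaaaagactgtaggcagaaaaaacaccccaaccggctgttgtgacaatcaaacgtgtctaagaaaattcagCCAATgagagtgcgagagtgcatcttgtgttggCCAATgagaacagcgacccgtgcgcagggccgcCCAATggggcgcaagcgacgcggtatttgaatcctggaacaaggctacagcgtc
TOP2A: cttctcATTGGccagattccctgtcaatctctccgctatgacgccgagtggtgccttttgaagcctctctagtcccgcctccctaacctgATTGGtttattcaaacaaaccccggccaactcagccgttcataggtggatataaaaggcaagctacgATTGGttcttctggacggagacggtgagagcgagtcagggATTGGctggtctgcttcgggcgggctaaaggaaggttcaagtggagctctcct
*CCNB1* held 2 such boxes, and *CCNB2* and *TOP2A* held 4 each. Of 41 promoters of the mitosis list 30 (73.2%) held the letters, against 36.7% of the promoters of all genes at least 2-fold lower. The sterol genes above, which rose, held them in 66.7% and 75% of promoters.

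Matrix metalloproteinases, enzymes that cut extracellular matrix, split by member. *MMP13*, a collagenase, measured 7.18, 6.85 and 7.84 FPKM in shHOXB13 DMSO cells, against 0.637, 0.812 and 0.533 FPKM in shCtrl DMSO cells (log2 3.29, SE 0.43, limma adjusted p = 4.2e-05). *MMP10*, a stromelysin, measured 2.71, 2.98 and 3.63 FPKM in shHOXB13 DMSO cells, against 0.914, 1.32 and 0.951 FPKM in shCtrl DMSO cells (log2 1.47), and *MMP12*, the macrophage elastase, measured 3.42, 1.95 and 3.36 FPKM in shHOXB13 DMSO cells, against 0.395, 0.647 and 0.891 FPKM in shCtrl DMSO cells (log2 2.03). These 3 enzymes rose and were under 2 FPKM in all shCtrl DMSO libraries. *MMP16*, a membrane-type enzyme, went the other way at 0.593, 0.621 and 0.722 FPKM in shHOXB13 DMSO cells, against 19.7, 23.3 and 23.5 FPKM in shCtrl DMSO cells (log2 −4.90, SE 0.13, limma adjusted p = 3.0e-10). *MMP24* averaged 0.771 ± 0.203 FPKM in shHOXB13 DMSO and 1.42 ± 0.0537 FPKM in shCtrl DMSO cells (log2 −0.83), *MMP11* fell by 1.03, and *MMP7* was at 0.491, 0.753 and 0.463 FPKM in shHOXB13 DMSO and 0.553, 0.888 and 0.399 FPKM in shCtrl DMSO libraries, which overlapped (limma adjusted p = 0.92). Of 12 tested members 3 were higher and 4 lower (median −0.12, 0.09 with median-of-ratios scaling). The inhibitor *TIMP2* rose by 0.40, and *TIMP1* had 2 reads over shHOXB13 DMSO and 0 over shCtrl DMSO.

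The median of the regulators of epithelial-mesenchymal transition lay near that of all genes. *CDH1*, E-cadherin, measured 213, 227 and 223 FPKM in shHOXB13 DMSO cells, against 160.4, 186 and 172 FPKM in shCtrl DMSO cells and rose slightly (log2 0.36, limma adjusted p = 0.0067). *VIM*, vimentin, measured 1.20, 1.40 and 1.58 FPKM in shHOXB13 DMSO cells, against 2.55, 2.17 and 2.25 FPKM in shCtrl DMSO cells (log2 −0.70, −0.38 and not past the test with median-of-ratios scaling). *SNAI1* averaged 0.585 ± 0.0712 FPKM in shHOXB13 DMSO and 1.16 ± 0.294 FPKM in shCtrl DMSO cells and *SNAI2* averaged 1.10 ± 0.0838 FPKM in shHOXB13 DMSO and 0.992 ± 0.259 FPKM in shCtrl DMSO cells (limma adjusted p = 0.0069 and 0.6), and *SNAI1* was not past the test with median-of-ratios scaling. *ZEB1* was near 0 and below the filter, at 0.0287, 0.0293 and 0.0270 FPKM in shHOXB13 DMSO libraries, against 0, 0.0173 and 0.0175 FPKM in shCtrl DMSO libraries. *TWIST1* fell by 1.89 and *FN1*, fibronectin, by 0.83, and so did the epithelial splicing factor *ESRP1* (log2 −1.27) and the epithelial repressors *OVOL1* and *OVOL2* (log2 −1.53 and −0.98). Of the list 2 of 17 members were higher and 10 lower (median log2 −0.36, or −0.02 with median-of-ratios scaling, which counted 5 higher and 6 lower), beside 15.2% higher, 42.4% lower and a median of −0.33 over all genes tested. One of the 2 higher members was lost without replicate 2 or 3 of either DMSO group. Of the integrins and laminins 7 of 13 members were higher and 2 lower (median log2 0.57, or 0.91 with median-of-ratios scaling, which counted 10 higher and 2 lower), with *LAMC1* at 0.70, *ITGA5* at 0.99 and *ITGA3* at 1.30.

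Lineage factors were mostly lower, and fewer of the HOX genes were. Of the prostate lineage factors 1 of 17 members were higher and 12 lower (median log2 −0.77, or −0.46 with median-of-ratios scaling, which counted 2 higher and 10 lower). *ETV1*, an ETS factor that LNCaP cells express from a rearranged gene, measured 12.9, 11.7 and 10.8 FPKM in shHOXB13 DMSO cells, against 49.2, 53.9 and 51.8 FPKM in shCtrl DMSO cells (log2 −2.12). *SOX4* fell by 1.52, *GATA2* by 0.77 and *MEIS1*, a partner of HOX proteins, by 2.06, while *ONECUT2* was at 0.49 (limma adjusted p = 0.019), a call lost without shHOXB13 DMSO replicate 1 (adjusted p = 0.0734) or shCtrl DMSO replicate 3 (adjusted p = 0.0689). Of 24 tested HOX genes other than *HOXB13*, 11 were lower, 1 was higher and 12 were not called (median −0.76), a share of lower genes near the 42.4% over all genes tested, and 9 were lower and 2 higher with median-of-ratios scaling (median −0.56). *HOXB9*, of the same cluster, averaged 0.954 ± 0.199 FPKM in shHOXB13 DMSO and 3.27 ± 0.358 FPKM in shCtrl DMSO cells (log2 −1.69). *HOXA5* and *HOXA6* fell by 2.24 and 2.48, and *HOXC13* was the 1 called higher (log2 0.42, limma adjusted p = 0.027), a call lost without shCtrl DMSO replicate 2 (adjusted p = 0.0865) or shHOXB13 DMSO replicate 2 (adjusted p = 0.115).

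Markers of other cell types were low or mixed, and their part in the other results was not tested. Fibroblast markers summed to 4.94 to 5.23 FPKM in shHOXB13 DMSO libraries, against 4.79 to 6.02 FPKM in shCtrl DMSO libraries, and *COL1A2*, *DCN*, *PDGFRA*, *THY1* and *POSTN* were at 0 in all 6. Of 7 tested fibroblast markers 1 was higher and 2 lower, or 1 without shHOXB13 DMSO replicate 3. Immune markers summed to 0.680 to 1.39 FPKM in shHOXB13 DMSO, against 0.591 to 0.961 FPKM in shCtrl DMSO libraries, with *PTPRC*, *CD3D*, *MS4A1* and *TYROBP* at 0 in all 6 and 1 of 5 tested members higher and 1 lower, or 2 higher without shHOXB13 DMSO replicate 1. Endothelial markers summed to 0.683 to 0.833 FPKM in shHOXB13 DMSO and 2.90 to 3.40 FPKM in shCtrl DMSO libraries, mostly *VWF* (log2 −2.08), while *CDH5* and *KDR* were at 0; 2 of 3 tested members were lower, and 1 without any 1 DMSO library other than shCtrl DMSO replicate 1. Basal epithelial markers summed to 36.1 to 37.2 FPKM in shHOXB13 DMSO and 38.5 to 40.8 FPKM in shCtrl DMSO libraries, with 1 of 6 higher, *LAMA3* (log2 1.12), or 2 without shCtrl DMSO replicate 2, and 4 lower. Neuroendocrine markers summed to 15.8 to 16.4 FPKM in shHOXB13 DMSO and 38.5 to 39.2 FPKM in shCtrl DMSO libraries, with *CHGA*, *INSM1* and *NEUROD1* at 0 in all 6, and 1 of 6 tested was higher, *SYP* (log2 0.81), and 5 lower. *EZH2*, the most abundant member over the 6 libraries, averaged 4.39 FPKM in shHOXB13 DMSO and 20.3 FPKM in shCtrl DMSO cells (log2 −2.19), so it made up much of the difference between the sums. Among luminal keratins *KRT18* measured 290.0, 284 and 234 FPKM in shHOXB13 DMSO cells, against 169.9, 133 and 121 FPKM in shCtrl DMSO cells. *KRT8* measured 285, 282 and 248 FPKM in shHOXB13 DMSO cells, against 185, 91.6 and 74.4 FPKM in shCtrl DMSO cells, with shCtrl DMSO replicate 1 the highest of its group, and both rose (log2 0.94 and 1.33), while *KRT19* and *KRT20* fell.

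Interferon-stimulated genes rose more often than they fell. Of the list 19 of 42 members were higher and 10 lower (median log2 0.35, or 0.69 with median-of-ratios scaling, which counted 24 higher and 5 lower), and 6 were lower without shHOXB13 DMSO replicate 3. *OASL*, an antiviral sensor cofactor, measured 5.67, 5.57 and 4.56 FPKM in shHOXB13 DMSO cells, against 1.01, 0.741 and 0.642 FPKM in shCtrl DMSO cells (log2 2.59, SE 0.18, limma adjusted p = 2.8e-07). *IFIT2*, which binds viral RNA, measured 5.61, 4.63 and 4.94 FPKM in shHOXB13 DMSO cells, against 0.778, 0.979 and 1.09 FPKM in shCtrl DMSO cells (log2 2.31), and *IFI6* and *LGALS3BP* rose by 1.28 and 1.97. *MX1*, an antiviral GTPase, and *OAS3* fell instead, by 1.66 and 1.48, so the response was not uniform. Of the antigen presentation genes of MHC class I 5 of 18 members were higher and 2 lower (median log2 0.14, or 0.45 with median-of-ratios scaling, which counted 11 higher and 0 lower), with *TAPBP* at 0.90 and *PSMB10* at 1.04. Of the NF-kB and cytokine genes 8 of 16 members were higher and 2 lower (median log2 0.38, or 0.66 with median-of-ratios scaling, which counted 9 higher and 2 lower). *NFKB2*, a subunit of the noncanonical pathway, measured 20.9, 24.3 and 21.1 FPKM in shHOXB13 DMSO cells, against 9.96, 9.77 and 8.44 FPKM in shCtrl DMSO cells (log2 1.22), and *NFKB1* fell by 0.86.

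The acetyltransferases and corepressor genes that the study concerns were mostly lower. *EP300*, which encodes p300, measured 11.0, 9.09 and 9.57 FPKM in shHOXB13 DMSO cells, against 15.2, 19.6 and 19.3 FPKM in shCtrl DMSO cells (log2 −0.86, SE 0.11, limma adjusted p = 4.4e-05), so 3 of 3 libraries lay below each control. *CREBBP*, the gene of CBP, measured 4.81, 4.51 and 4.34 FPKM in shHOXB13 DMSO cells, against 8.14, 8.93 and 10.2 FPKM in shCtrl DMSO cells (log2 −0.97, SE 0.10, limma adjusted p = 6.3e-06). *HDAC3*, the deacetylase of the corepressor, averaged 22.1 ± 2.92 FPKM in shHOXB13 DMSO and 29.5 ± 2.01 FPKM in shCtrl DMSO cells (log2 −0.42, −0.08 and not past the test with median-of-ratios scaling). *NCOR1* averaged 13.6 ± 0.987 FPKM in shHOXB13 DMSO and 29.1 ± 3.07 FPKM in shCtrl DMSO cells (log2 −1.08). Of 24 members 2 were higher, *HDAC10* (log2 0.53) and *KAT2B* (log2 0.30), and 17 lower (median −0.66), beside 15.2% higher and 42.4% lower over all genes tested. With median-of-ratios scaling 5 were higher and 13 lower (median −0.32), beside 27.3% and 26% over all genes. *EP300* was then at −0.51 and *CREBBP* at −0.64. The call of *KAT2B* (limma adjusted p = 0.043) was lost without any 1 of the 6 DMSO libraries (adjusted p = 0.0578 to 0.145). *TBL1X*, a core corepressor subunit, fell by 1.45 and *KAT2A* by 0.99.

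The untreated knockdown series offers the same contrast in libraries that were not used above. There 1848 of 16503 genes were higher (11.2%) and 6319 lower (38.3%) at the adjusted p. Of the 662 genes at least 2-fold higher under DMSO, 509 (76.9%) were also higher in the knockdown series and 4 were lower. Of the 2731 at least 2-fold lower, 2007 (73.5%) were also lower and 19 higher. At 2-fold in both, 402 rises were shared, 60.7% of those under DMSO and 46.3% of the 868 in the knockdown series, and 1549 falls, 56.7% of those under DMSO and 60.2% of the 2573 there. Across 15713 genes, which are not independent, the differences had a Pearson correlation of 0.707. The median gene of the rises was at log2 1.47 under DMSO and 1.31 in the knockdown series, and the median of the falls at −1.44 and −1.16. These genes were chosen by their DMSO values, which alone tends to make medians smaller in the other series. A weaker effect there cannot be read from these medians. Early mevalonate genes counted 6 of 9 higher and 0 lower in the knockdown series, mitosis genes 0 of 37 higher and 37 lower, and glucuronidation genes 9 of 10 higher and 1 lower. Fatty acid oxidation genes counted 8 of 23 higher and 5 lower there, and MHC class I genes 12 of 19 higher and 0 lower.

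The size of the effect differed between the 2 sets of libraries for some genes. The knockdown effect was higher under DMSO for 1103 genes (6.68%) and lower for 713 (4.32%), by a test of the difference of differences over 10 libraries. *MMP10*, *MMP12* and *MMP13* were at log2 1.47, 2.03 and 3.29 under DMSO and, from shCtrl levels of 0.329 and 0.543 FPKM for *MMP10*, at 6.28, 6.06 and 5.54 in the knockdown series. The differences between them were −4.80, −4.03 and −2.25 (limma adjusted p = 8.6e-05, 0.0013 and 0.0028). *TM4SF1*, a tetraspanin-like surface protein, was at 227, 258 and 262 FPKM in shHOXB13 DMSO cells, against 20, 21.2 and 20.4 FPKM in shCtrl DMSO cells. In the knockdown series it was at 534 and 526 FPKM in shHOXB13 cells, against 5.14 and 6.04 FPKM in shCtrl cells. *TFRC*, the transferrin receptor, was at 103, 108 and 104 FPKM in shHOXB13 DMSO cells, against 25.5, 27.2 and 25.8 FPKM in shCtrl DMSO cells. In the knockdown series it was at 35.5 and 32.3 FPKM in shHOXB13 cells, against 33.8 and 35.4 FPKM in shCtrl cells, and the knockdown effects differed by 2.03 on the log2 scale. Vehicle and series cannot be told apart in this comparison. These counts depend on single libraries, and leaving out shHOXB13 replicate 2 of the knockdown series left 378 higher and 294 lower.

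**Figure D5:**
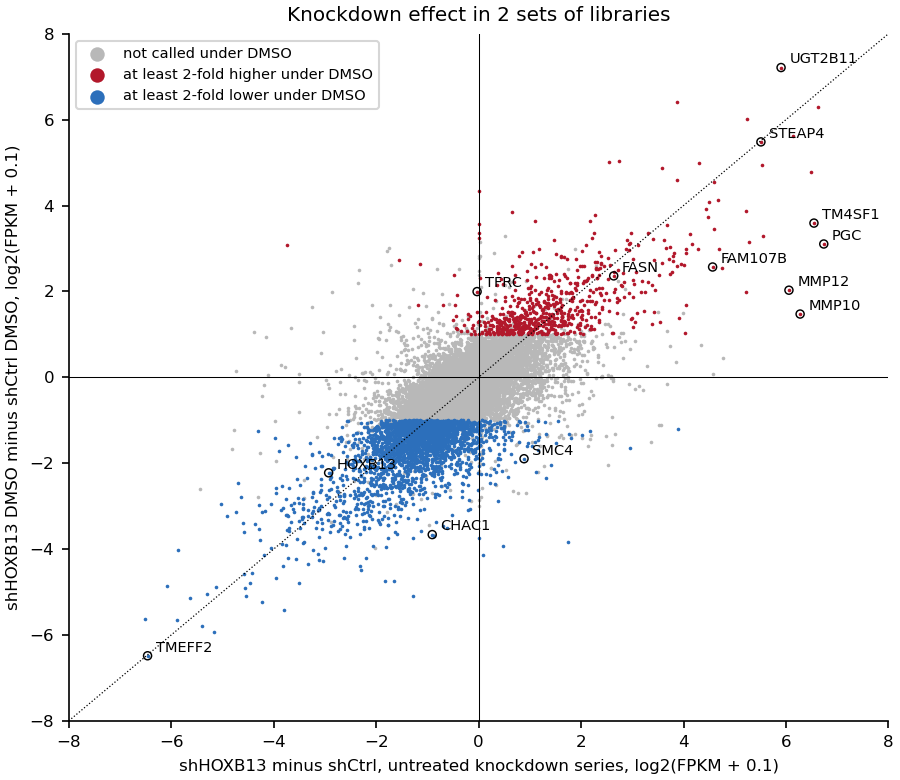
Knockdown effect on the log2(FPKM + 0.1) scale under DMSO (vertical axis) against that in the untreated knockdown series (horizontal axis), with genes at least 2-fold higher (red) or lower (blue) under DMSO and the line of equal effect dotted. Labelled genes include *MMP10* (1.47 against 6.28) and *PGC* (3.10 against 6.74), which lie below that line.

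The knockdown effect was also set against the one measured in the presence of CCS1477, in 6 further libraries, so both effects sit in 1 fit and the DMSO libraries enter the difference as well as the main comparison. It was higher under DMSO for 660 genes (4.15%) and lower for 1448 (9.1%), by the interaction in the same fit, an order that turned round with median-of-ratios scaling (1336 higher and 995 lower). *STEAP4*, *UGT2B11* and *HPGD*, the enzyme that inactivates prostaglandins, had effects larger under DMSO by 5.80, 3.53 and 3.44 on the log2 scale (limma adjusted p = 1.8e-06, 5.8e-07 and 3.6e-07). *STEAP4* averaged 0.255 ± 0.0618 FPKM in shHOXB13 CCS1477 and 0.342 ± 0.0519 FPKM in shCtrl CCS1477 cells. *FASN* differed by 1.13, *KLK3* by 1.13 and *HMGCS1* by 1.49, whereas for *SCD* the difference was −0.01 with an SE of 0.12 and *HOXB13* itself differed by −0.15 with an SE of 0.12. The signed difference, DMSO minus CCS1477, was positive for 7 and negative for 0 of 9 early mevalonate genes at the adjusted p, and positive for 0 and negative for 18 of 26 ATF4 genes (1 and 15 with median-of-ratios scaling). In the androgen response list it was positive for 15 and negative for 6 of 34 (17 and 3 with that scaling), where the knockdown effect itself counted 11 higher and 17 lower under DMSO and 4 higher and 23 lower with CCS1477. Leaving out shHOXB13 DMSO replicate 2 left 437 genes higher.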

How the data were processed

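Poly(A) RNA of LNCaP cells was sequenced, per the labels. The deposited values are FPKM, which the authors made with an in-house script from gene read counts of a STAR alignment (version 2.6.0, build hg38, per the submitters' processing notes), dividing by mapped reads and gene length. Of 26475 genes listed, 32 had no value. FPKM moves in steps of whole reads, so depth was recovered from microRNA genes of annotated length. For each of 17372 genes above 0 in at least 6 of 16 libraries, the shortest length giving whole reads within 0.05 was taken. That 100% of 259226 values were whole therefore follows from this search and is no check of it. With these reads, 78.3% to 82.8% of mapped reads of the 6 libraries lay in genes.

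Values were tested as log2(FPKM + 0.1) with limma 3.58.1 (R 4.3.3), moderated with a trend, in 1 fit of the 12 libraries of the CCS1477 series, for genes of at least 0.1 FPKM in 3 libraries. P-values were adjusted over all genes by Benjamini-Hochberg. Groups had 3 libraries, and p-values measure the spread between these libraries. The code was tested on simulated data. The members of the 46 gene lists and the tests were chosen with earlier results of these data known. Named genes were those the study names, the 12 largest rises and falls of at least 1 FPKM with separate libraries, the 8 highest in each group, up to 6 per list by smallest p with up to 2 moving against the rest, and the 6 smallest p of each difference of effects. Small RNA and LOC entries were left out of the largest and highest genes. The knockdown series was fitted with the 6 DMSO libraries (0.1 FPKM in 2 of 10). Promoters came from RefSeq (GRCh38.p14), found for 234 of 318 named genes. Genes with 0 to 3 reads in a group are given with a floor of 3 reads over the group or an exact 95% counting interval, which cover counting error only. Alternatives were other pseudocounts, filters and scaling, the DMSO libraries alone, a replicate block, voom on the recovered reads, and each library left out. The other 12 libraries were not used here. Counting did not use strand, so antisense genes cannot be told apart from their partners, and near-identical copies are uncertain. Some genes that the rule named are not reported here.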

Additional observations from a re-analysis of the deposited data

Results flagged for a closer look

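Several knockdown effects differed between sets of libraries by a test of the difference itself. Between the DMSO libraries and the untreated knockdown series, the effect was higher under DMSO for 1103 genes and lower for 713. Those with the smallest p were *TM4SF1* (DMSO minus knockdown series, log2 −2.96), *CHAC1* (−2.76), *TFRC* (2.03), *SMC4* (−2.78), *FAM107B* (−1.999) and *PGC* (−3.63). *SMC4*, a condensin subunit, measured 6.86, 6.47 and 5.68 FPKM in shHOXB13 DMSO cells, against 22.5, 24.7 and 24.2 FPKM in shCtrl DMSO cells. In the knockdown series it measured 7.90 and 7.88 FPKM in shHOXB13 cells, against 4.64 and 3.84 FPKM in shCtrl cells. Relative to its control it was lower under DMSO and higher in the knockdown series (limma adjusted p = 0.00027 in the knockdown series).

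Between DMSO and CCS1477, which share a fit, the effect was higher under DMSO for 660 genes and lower for 1448, an order that turned round with median-of-ratios scaling (1336 and 995). The genes with the smallest p were *HPGD* (DMSO minus CCS1477, log2 3.44), *ST6GALNAC1*, a sialyltransferase (3.06), *UGT2B11* (3.53), *UGT2B28* (3.15), *RTN1*, a reticulon (−2.68), and *STEAP4* (5.80).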

How the results depend on the processing

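Counts at 2-fold moved with the pseudocount and the scaling: a pseudocount of 1 gave 359 higher and 1350 lower genes, and median-of-ratios scaling 1256 and 1639, with 4338 and 4135 at the adjusted p alone; the cause of the difference was not tested. That scaling also gave 1336 genes with an effect higher under DMSO than under CCS1477 and 995 with a lower one, against 660 and 1448. Leaving out each DMSO library gave 604 to 691 higher and 2563 to 2745 lower genes at 2-fold, 2008 to 2300 and 5969 to 6480 at the adjusted p alone, and 199 to 217 higher and 294 to 307 lower list members. For the difference from the knockdown series, single libraries decided the counts: 378 to 1096 higher (619 without shHOXB13 DMSO replicate 1, 587 without its replicate 2, 551 without shCtrl replicate 1, 687 without shHOXB13 replicate 1, 378 without its replicate 2) and 294 to 695 lower (449, 474, 433, 347 and 294 without the same libraries, 472 without shCtrl replicate 2). For the difference from CCS1477 the ranges were 437 to 661 higher and 967 to 1485 lower, and the lowest, 437, was without shHOXB13 DMSO replicate 2. Replicate numbers did not pair the samples (correlations of deviations 0.005, 0.025 and 0.021). Each library correlated best with its own number except shHOXB13 replicate 1, which did so with 3. The replicate block gave 671 higher and 2749 lower genes at 2-fold, and 422 lower in the difference from the knockdown series.

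Of the named genes, 301 kept direction and call under median-of-ratios scaling, 12 missed the threshold, 2 passed it newly (among them *LAMB3*, 0.86) and 2 changed sign (*MBTPS1* 0.11, *MID1IP1* 4e-04). The 12 included *EDEM1*, *ENO2*, *FTH1*, *HDAC3*, *MAX*, *MGA*, *MYCL*, *RPL4*, *SNAI1*, *TAP2* and *VIM*. Filtering at 1 FPKM left 291 named genes, with no change of call. Voom on recovered reads gave 679 and 2796 genes at 2-fold. Low genes are limited by depth: 0.1 FPKM of a 2 kb gene is 1.6 to 2.3 reads in the 6 DMSO libraries.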

Other observations

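Lysosomal and sphingolipid genes moved in both directions. *NPC1*, which exports cholesterol from lysosomes, measured 104, 106 and 101 FPKM in shHOXB13 DMSO cells, against 17.8, 19.8 and 17.7 FPKM in shCtrl DMSO cells (log2 2.49, SE 0.07, limma adjusted p = 4.1e-10). *ASAH1*, acid ceramidase, averaged 443 ± 9.13 FPKM in shHOXB13 DMSO and 87.1 ± 2.97 FPKM in shCtrl DMSO cells (log2 2.35), while *LAMP1*, a membrane protein of the lysosome, fell (log2 −1.17). Of the lysosome list 10 of 29 members were higher and 8 lower, and 16 higher and 4 lower with median-of-ratios scaling, and 5 lower without shHOXB13 DMSO replicate 3 or shCtrl DMSO replicate 2 or 3. Of the sphingolipid list 7 of 23 members were higher and 8 lower (median log2 −0.03, or 0.31 with median-of-ratios scaling, which counted 12 higher and 4 lower), with the serine palmitoyltransferase subunit *SPTLC3* at 2.59 and the desaturase *DEGS1* at −1.43.

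Growth factor signalling was mixed. *ERBB2*, which encodes HER2, measured 129, 149.6 and 141 FPKM in shHOXB13 DMSO cells, against 52.0, 53.7 and 53.4 FPKM in shCtrl DMSO cells (log2 1.39). *IGF1R*, the IGF receptor, fell by 1.44, *IRS1*, its adaptor, by 2.24 and *IGFBP2*, which binds IGF, by 2.6. Of the ERBB and IGF list 3 of 15 members were higher and 7 lower (median log2 −0.41, or −0.08 with median-of-ratios scaling, which counted 6 higher and 5 lower). Over all genes tested 15.2% were higher and 42.4% lower, with a median of −0.33, so this list lay near the background. In the prostaglandin list 4 of 13 members were higher and 5 lower (median log2 −0.06, or 0.15 with median-of-ratios scaling, which counted 5 higher and 5 lower), with 2 higher without replicate 3 of either DMSO group, and *PLA2G2A*, a secreted phospholipase, fell by 3.51. Of the polyamine list 2 of 12 members were higher and 5 lower (median log2 −0.35, or −0.04 with median-of-ratios scaling, which counted 4 higher and 4 lower), with *SAT1*, which acetylates polyamines, at 2.32. The shares and median of the polyamine list also lay near those over all genes tested. Of the metallothionein and zinc list 6 of 11 members were higher and 3 lower (median log2 0.42, or 0.76 with median-of-ratios scaling, which counted 8 higher and 2 lower). Of the ABC transporters outside the largest changes 5 of 13 members were higher and 4 lower (median log2 0.18, or 0.38 with median-of-ratios scaling, which counted 6 higher and 3 lower).

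Of the long noncoding list 5 of 11 members were higher and 4 lower (median log2 −0.15, or 0.20 with median-of-ratios scaling, which counted 5 higher and 4 lower), and *PCGEM1* had 3 reads over the shHOXB13 DMSO libraries, against 42 over the shCtrl DMSO libraries (17.8-fold lower, 95% counting interval 5.68 to 89.7). *MALAT1* took 0.175%, 0.171% and 0.708% of reads in genes in shHOXB13 DMSO libraries, against 0.0693%, 0.0730% and 0.105% in shCtrl DMSO libraries, so shHOXB13 DMSO replicate 3 was the highest of its group. Of 14 genes often used as references 4 were higher and 3 lower (median log2 −0.04, or 0.30 with median-of-ratios scaling, which counted 7 higher and 3 lower), and 5 lower without shCtrl DMSO replicate 3 or without replicate 1 of both shCtrl groups.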
